A study of Arabidopsis thaliana with 44 samples.

Results

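The group III WRKY genes described here are 10 Arabidopsis thaliana genes, WRKY70 (AT3G56400), WRKY54 (AT2G40750), WRKY53 (AT4G23810), WRKY46 (AT2G46400), WRKY30 (AT5G24110), WRKY55 (AT2G40740), WRKY38 (AT5G22570), WRKY62 (AT5G01900), WRKY63 (AT1G66600) and WRKY41 (AT4G11070). They were taken by their listed locus identifiers from the 33341 genes of the count table. RNA-seq was made from shoots of 4 genotypes, WT and the single mutants pkl-1, clf-28 and pie1-5, with 3 libraries of each. All plants were 3 weeks old and had grown in soil with 16 h of light a day, and the labels list no treatment. Each mutant is represented by 1 allele, and the ecotype of the WT is not given in the sources used here. Chromatin immunoprecipitation (ChIP) against H3K27me3 and against the histone variant H2A.Z was made in the same genotypes, with 2 libraries listed for each genotype and mark. The design text calls the replicates independent biological ones.

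WRKY proteins are plant transcription factors that bind W-box elements through a WRKY domain, and group III is the class with a C2HC-type zinc finger. In leaves many of its members are known as salicylic acid and pathogen response genes and as regulators of leaf senescence. PKL (PICKLE) is a CHD-type chromatin remodeler, CLF (CURLY LEAF) is an H3K27 methyltransferase of the Polycomb repressive complex, and PIE1 is the ATPase of the SWR1 complex that deposits H2A.Z. The comparisons ask how the loss of each factor goes with the transcript level of the group III genes and with H3K27me3 and H2A.Z over them.

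The RNA-seq libraries held 21588609 to 33057306 counts. The library pkl-1 2 stood apart, with reads on 25807 genes against 21380 to 22847 in the other 11 libraries, so results on pkl-1 are also given without it where it changes a call or moves a value by over 1.5-fold. The 4 green shoot markers (RBCS1A, CAB1, LHCA1 and GUN4) summed to 9192 to 11827 CPM (counts scaled by library size) over the 12 libraries. Of the root genes, the root hair gene EXPA7 had no read in any library, and COBL9 and RHD6 had at most 0.0534 and 0.216 CPM. The root gene PYK10 stood at 22.4 to 69.8 CPM. PKL was 1.85-fold higher in pkl-1 (adjusted p = 0.0247), CLF was 6.81-fold higher in clf-28 (7.99e-05), and PIE1 was 1.87-fold lower in pie1-5 without passing the test (0.0565). The call of PKL was lost without any 1 of the 6 libraries of WT and pkl-1 (adjusted p up to 0.110). All 3 genes overlap another annotated gene, so these counts do not check the labels.

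Of the 10 group III genes, 8 passed the filter on low counts and were tested, while WRKY63 and WRKY41 stayed under it. WRKY38 and WRKY62 passed only through the pie1-5 libraries and WRKY55 only through those of WT, so the counts and medians over the 8 are a description and not support for a direction. In pkl-1, 4 of the 8 were called lower than in WT and 0 higher (WRKY70, WRKY54, WRKY46 and, through its high WT libraries, WRKY55), where 2.58% of the 20375 tested genes were called lower and 1.45% higher (4.03% in all). The 4 became 2 without WT 2, pkl-1 1 or pkl-1 2. In clf-28, 2 of the 8 were called lower and 0 higher (WRKY70 and WRKY54), against 1.23% of all genes called lower and 0.918% higher (2.15% in all). The 2 became 1 without WT 3, clf-28 2 or clf-28 3. In pie1-5, 4 of the 8 were called higher and 0 lower (WRKY70, WRKY53, WRKY46 and, through its high pie1-5 libraries, WRKY38), against 3.8% of all genes called higher and 3.56% lower (7.36% in all). The median log2 fold change of the 8 genes was −2.34 in pkl-1, −1.41 in clf-28 and 1.503 in pie1-5, beside medians of all tested genes of 0.0054, −0.0038 and 0.0096. With WRKY38, which had no read in pkl-1, set to its lower bound, the median in pkl-1 was −2.28. The 3 comparisons share the WT libraries. Calls are from edgeR's quasi-likelihood test at a Benjamini-Hochberg adjusted p under 0.05 over all tested genes, and all adjusted p-values of RNA below come from it unless another tool is named. In bulk shoots, fewer cells of a type and less RNA per cell cannot be told apart.

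**Figure D1:**
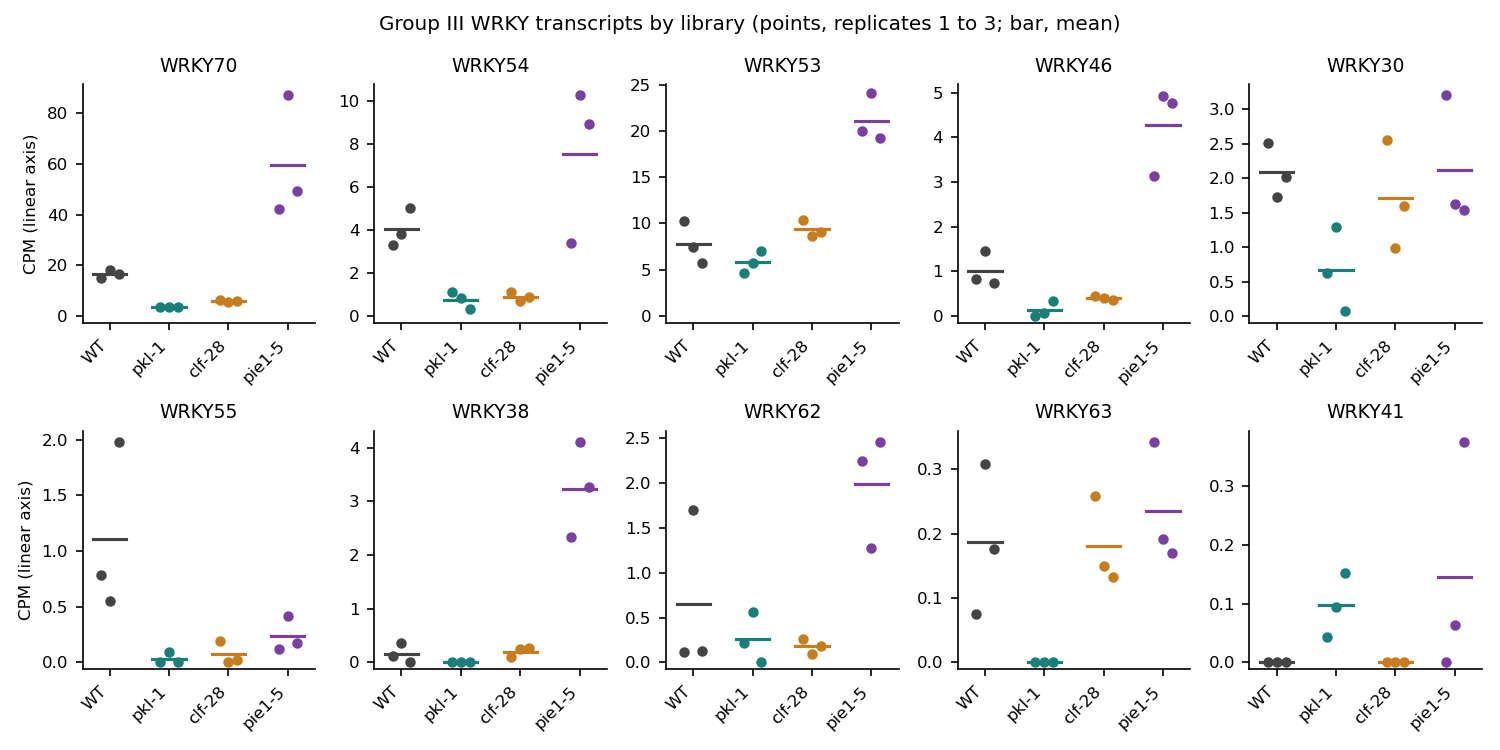
CPM (linear axis, a scale of its own in each panel) of the 10 group III WRKY genes in the 12 RNA-seq libraries. Points are replicates 1 to 3 of each genotype and bars are their means. WRKY70 lay at 14.9 to 18.3 CPM in WT, under 3.5 CPM in pkl-1 and at 42.4 to 87.1 CPM in pie1-5.

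WRKY70 is known as an activator of salicylic acid dependent defence that also represses jasmonate responses, and it moved in all 3 mutants. In WT replicates 1, 2 and 3 it stood at 14.9, 18.3 and 16.6 CPM, and in pkl-1 at 3.49, 3.49 and 3.44 CPM. In clf-28 it stood at 6.37, 5.52 and 6.03 CPM, and in pie1-5 at 42.4, 87.1 and 49.1 CPM. All libraries of pkl-1 and of clf-28 lay under the lowest WT library, and all of pie1-5 lay above the highest. WRKY70 fell 4.77-fold in pkl-1 (log2 fold change −2.26 ± 0.24 SE, n = 3 a group, adjusted p = 5.97e-05) and 2.77-fold in clf-28 (−1.47 ± 0.23, 0.00294). It rose 3.59-fold in pie1-5 (1.84 ± 0.23, 3.09e-04). These 3 calls held in each of the 12 alternative settings tried for each comparison, with adjusted p up to 9.44e-04, 0.0285 and 0.0151.

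WRKY54 is the closest relative of WRKY70 and acts with it as a negative regulator of leaf senescence. It stood at 3.30, 3.80 and 5.01 CPM in WT, at 1.10, 0.817 and 0.344 CPM in pkl-1 and at 1.13, 0.696 and 0.881 CPM in clf-28. In pie1-5 it stood at 3.39, 10.3 and 8.93 CPM. The libraries of pkl-1 and clf-28 all lay under those of WT, while pie1-5 1 lay within the WT range and the other 2 pie1-5 libraries above it. WRKY54 fell 5.35-fold in pkl-1 (−2.42 ± 0.45, adjusted p = 0.00504) and 4.40-fold in clf-28 (−2.14 ± 0.43, 0.0160). In pie1-5 the estimate was 1.87-fold higher, without a call (0.90 ± 0.39, 0.191). The call in clf-28 was lost without WT 3 (0.0728), clf-28 2 (0.0853) or clf-28 3 (0.0951), and in pie1-5 WRKY54 was called higher without pie1-5 1 (log2 1.25, 0.0232).

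WRKY46 and WRKY53 are known to act with WRKY70 in basal resistance to Pseudomonas syringae, and WRKY53 is also known as a promoter of leaf senescence. WRKY46 stood at 0.825, 1.45 and 0.747 CPM in WT, compared with 0, 0.0628 and 0.344 CPM in pkl-1. In clf-28 it stood at 0.453, 0.398 and 0.347 CPM and in pie1-5 at 3.14, 4.94 and 4.77 CPM. No library of a mutant overlapped the WT range, with pkl-1 and clf-28 below it and pie1-5 above. WRKY46 fell 7.24-fold in pkl-1 (−2.86 ± 0.68, adjusted p = 0.0254) and rose 4.20-fold in pie1-5 (2.07 ± 0.55, 0.0308). In clf-28 the estimate was 2.54-fold lower, without a call (−1.34 ± 0.59, 0.327). The call in pkl-1 was lost without WT 2 (0.0886), pkl-1 1 (0.0696) or pkl-1 2 (0.104), and in a fit of only the 6 libraries of both genotypes (0.0951), and without pkl-1 3 the log2 fold change was −4.66. The call in pie1-5 was lost without WT 1 (0.0999), WT 3 (0.105), pie1-5 2 (0.0957) or pie1-5 3 (0.0963).

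WRKY53 rose in pie1-5 and was called in neither of the other mutants. It stood at 10.2, 7.47 and 5.76 CPM in WT, at 4.68, 5.75 and 6.99 CPM in pkl-1 and at 10.4, 8.65 and 9.03 CPM in clf-28. In pie1-5 it stood at 20.0, 24.0 and 19.2 CPM, all above every library of the other 3 genotypes, whose ranges overlapped that of WT. The rise in pie1-5 was 2.69-fold (1.43 ± 0.22, adjusted p = 0.00149). The estimate was 1.35-fold lower in pkl-1 (−0.43 ± 0.23, 0.350) and 1.19-fold higher in clf-28 (0.26 ± 0.22, 0.687). WRKY53 overlaps the annotated gene AT4G23800, and the library kit keeps no record of the strand, so which of them a read came from cannot be told apart.

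WRKY38 and WRKY62 are known as salicylic acid induced genes whose proteins bind the histone deacetylase HDA19 and limit basal defence. WRKY38 had 3, 12 and 0 reads in WT replicates 1, 2 and 3 and no read in any pkl-1 library. It stood at 0.0970, 0.249 and 0.267 CPM in clf-28 and at 2.33, 4.11 and 3.27 CPM in pie1-5. WT and clf-28 overlapped, and every pie1-5 library lay above all others. WRKY38 rose 18.4-fold in pie1-5 (log2 4.21 ± 0.81, adjusted p = 0.00772), with log2 5.66 when WT 2, which holds 12 of the 15 WT reads, was left out. It passed the filter on low counts only through pie1-5, the group in which it is high. Against WT it was at least 4.93-fold lower in pkl-1, taking a floor of 3 counts over the group, and did not pass the test (0.0848). It was called there by DESeq2 (0.0239), with no filter on low counts (0.00817) and without WT 3 (0.0430), while without WT 2 only 3 WT reads remain and the adjusted p was 0.295. In clf-28 the estimate was 1.18-fold higher (0.24 ± 0.86, 0.946), with log2 1.70 without WT 2 and −0.27 without WT 3.

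WRKY62 stood at 0.113, 1.70 and 0.132 CPM in WT, so that WT 2 alone carried most of its WT reads. It stood at 0.221, 0.566 and 0 CPM in pkl-1, at 0.259, 0.0994 and 0.187 CPM in clf-28 and at 2.24, 1.27 and 2.45 CPM in pie1-5. The range of WT overlapped that of every mutant, and WRKY62 was called in none of them. Its fold changes were −1.29 ± 1.02 in pkl-1 (adjusted p = 0.575), −1.81 ± 1.05 in clf-28 (0.496) and 1.58 ± 0.95 in pie1-5 (0.359) on the log2 scale. Without WT 2 the estimates in pkl-1 and clf-28 changed sign, to 1.11 and 0.60, and that in pie1-5 was 3.98 (0.0564). Without pkl-1 2 the estimate in pkl-1 was −2.61 (0.343).

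WRKY30, an early responder to pathogens and oxidative stress that binds other group III proteins, was called in no mutant. It stood at 2.51, 1.73 and 2.02 CPM in WT, at 0.618, 1.29 and 0.0764 CPM in pkl-1, at 2.56, 0.994 and 1.60 CPM in clf-28 and at 3.21, 1.62 and 1.53 CPM in pie1-5. All pkl-1 libraries lay under those of WT, and the ranges of clf-28 and pie1-5 overlapped the WT range. The log2 fold change was −1.63 ± 0.62 in pkl-1 (adjusted p = 0.173), −0.27 ± 0.58 in clf-28 (0.900) and 0.03 ± 0.58 in pie1-5 (0.988). In pkl-1 it was called when no filter on low counts was used (0.0198), and without pkl-1 2 the estimate was −2.61 (0.0662).

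WRKY55, a promoter of leaf senescence and defence, lies next to WRKY54 in the annotation and was highest in WT. It stood at 0.788, 0.556 and 1.98 CPM in WT, compared with 0, 0.0943 and 0 CPM in pkl-1, from 3 reads in the library pkl-1 2. In clf-28 it stood at 0.194, 0 and 0.0267 CPM, and in pie1-5 at 0.124, 0.414 and 0.170 CPM. Every mutant library lay under the lowest WT library, in all 3 mutants. In pkl-1 WRKY55 fell (adjusted p = 0.0479), with a counting ratio of 27.6 between 84 reads in WT and 3 in pkl-1 (95% counting interval 9.13 to 137, which covers counting error only). That call was lost with a replicate block (0.0837) and without any 1 of the 6 libraries, with adjusted p of 0.0814, 0.0659 and 0.212 without WT 1, 2 and 3 and of 0.162, 0.0594 and 0.160 without pkl-1 1, 2 and 3, and the fitted log2 value was −4.80, −4.10 without WT 3 and −7.97 without pkl-1 2. WRKY55 was not called in clf-28 (13.5-fold lower, log2 −3.76 ± 1.18, 0.130) or in pie1-5 (4.59-fold lower, −2.20 ± 1.05, 0.235). The log2 value in clf-28, where clf-28 1 holds 6 of the 7 reads, was −5.72 without clf-28 1 and −3.05 without WT 3, and that in pie1-5 was −1.48 without WT 3 and −2.87 without pie1-5 2. In clf-28 it was called by DESeq2 (0.0276) and in a fit of only the 6 libraries of both genotypes (0.0405).

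WRKY63, known for a role in abscisic acid and drought responses, and WRKY41, known for a role in seed dormancy, were too low to be tested. WRKY63 stood at 0.0750, 0.309 and 0.176 CPM in WT, at 0 in all 3 pkl-1 libraries, at 0.259, 0.149 and 0.134 CPM in clf-28 and at 0.342, 0.191 and 0.170 CPM in pie1-5. With 16 reads in WT and 0 in pkl-1 it was at least 5.26-fold lower in pkl-1, while WT, clf-28 and pie1-5 overlapped. WRKY41 had no read in WT or clf-28, 1, 3 and 4 reads in pkl-1 and 0, 2 and 11 reads in pie1-5, and was at least 2.70-fold higher in pkl-1 and at least 3.82-fold higher in pie1-5. WRKY41 overlaps AT4G11080. WRKY63 has close copies in WRKY64, WRKY66 and WRKY67. Of these only WRKY67 had reads, at most 0.615 CPM, so reads of WRKY63 may have been split with WRKY67.

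**Figure D2:**
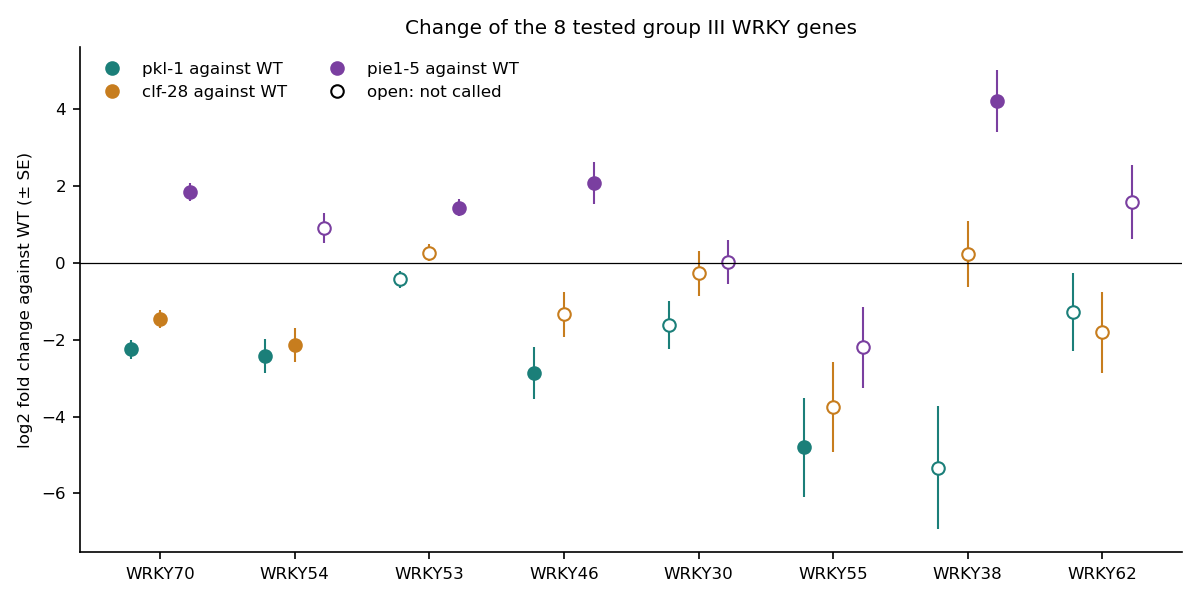
Log2 fold change against WT (± SE, edgeR, 3 libraries a group) of the 8 tested genes, with filled points for genes called at an adjusted p under 0.05. WRKY70 was called lower in pkl-1 and clf-28 and higher in pie1-5. The values of WRKY38 and WRKY55 in pkl-1 rest on groups with 0 and 3 reads and are no measure of the size of their fold.

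Between the mutants, group III genes were called in the comparisons with pie1-5. In pkl-1, 5 of the 8 tested genes were called lower than in pie1-5 and 0 higher, against 6.27% of all genes called lower and 4.73% higher (11.0% in all). These were WRKY70 (17.1-fold, adjusted p = 1.18e-07), WRKY54 (9.98-fold, 1.95e-04), WRKY53 (3.63-fold, 7.63e-05), WRKY46 (30.4-fold, 2.11e-04) and WRKY38, which was at least 86.9-fold lower (3.76e-04). WRKY38 passed the filter on low counts only through pie1-5, the group in which it is high, as did WRKY62. Results of WRKY38 and WRKY62 in both comparisons with pie1-5 are therefore no support for a direction. WRKY46 had a log2 value of −4.93, and of −6.73 without pkl-1 3. WRKY30 (0.0994), WRKY62 (0.0867) and WRKY55 (0.223) were lower in pkl-1 with no overlap of the groups and did not pass. Without pkl-1 2, WRKY30 was also called (log2 −2.64 against −1.65, 0.0309), WRKY62 had log2 −4.18 against −2.87 (0.0647), and WRKY55, whose 3 pkl-1 reads are all in that library, had −5.77 against −2.60 (0.120). WRKY55 had −1.94 without pie1-5 2, and DESeq2 also called WRKY62 (0.0311). The genes called lower in clf-28 than in pie1-5 were also 5 of 8, with 0 higher, against 5.12% of all genes called lower and 3.63% higher (8.76% in all). There WRKY70 was 9.94-fold lower (1.18e-06), WRKY54 8.21-fold (4.56e-04), WRKY53 2.25-fold (0.00379), WRKY46 10.7-fold (0.00216) and WRKY38 15.6-fold (0.00728). WRKY62 was 10.4-fold lower with no overlap of the groups and missed the threshold (0.0595), and it was called by DESeq2 (0.0104).

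Between pkl-1 and clf-28, edgeR called 0 of the 8 genes, against 1.49% of all genes called lower and 1.24% higher (2.73% in all). At an unadjusted p under 0.05 there were 5, DESeq2 called 1 (WRKY38, adjusted p = 0.0173), and edgeR without a filter on low counts called 2 (WRKY70, 0.0133, and WRKY38, 0.00505). DESeq2 and the fit with no filter also called more genes in all than the main test did. Of the 49 other tested WRKY genes, 9 had an unadjusted p under 0.05 and 0 were called by edgeR. The share of all tested genes under that unadjusted threshold is not given here, so the 5 are a description only. WRKY70 was 1.72-fold lower in pkl-1, with no overlap of the groups (log2 −0.79 ± 0.24, 0.0966). WRKY53 was 1.61-fold lower, also with no overlap (−0.69 ± 0.22, 0.125). For WRKY54 the estimate was 1.22-fold lower and the ranges overlapped (−0.28 ± 0.46, 0.830). Without pkl-1 2 the log2 value moved by over 1.5-fold for WRKY30 (−2.35 against −1.36), WRKY55 (−4.22 against −1.04) and WRKY62 (−0.81 against 0.52), none of them called.

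By genotype means, WRKY70 and WRKY46 had the order pie1-5, WT, clf-28 and pkl-1 from high to low, with no overlap between any neighbours in that order. WRKY54 and WRKY30 had the same order of means, but in WRKY54 only WT and clf-28 were separated among neighbours, and in WRKY30 none were. For WRKY53 and WRKY38 the order was pie1-5, clf-28, WT and pkl-1, with only pie1-5 separated from its neighbour. WRKY55 stood highest in WT, followed by pie1-5, clf-28 and pkl-1, with only WT separated. For WRKY62 the order was pie1-5, WT, pkl-1 and clf-28, with no neighbours separated. The untested WRKY63 had the order pie1-5, WT, clf-28 and pkl-1, with only clf-28 and pkl-1 separated. In the untested WRKY41, pie1-5 and pkl-1 stood above WT and clf-28, which had no read, and pie1-5 and pkl-1 overlapped. The share of all genes separated in these ways is not given here.

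Across the 12 libraries, the 28 pairs of tested group III genes had Pearson correlations of log2 CPM from 0.10 to 0.94 with a median of 0.62, and 7 pairs were over 0.8. The highest was WRKY70 with WRKY46 (0.94), followed by WRKY53 with WRKY38 (0.94) and WRKY70 with WRKY54 (0.93), while WRKY55 with WRKY38 was the lowest. The pairs over 0.8 also include WRKY38 with WRKY46 (0.87) and with WRKY70 (0.86). WRKY38 and WRKY62 passed the filter on low counts only through pie1-5, and WRKY55 only through WT. Correlations with these genes are therefore no support for a shared course. The points share genotypes in threes, and with genotype means removed the correlations ran from −0.71 to 0.57 with a median of 0.12. Among 14345 other genes with a mean log2 CPM of at least 1, the profiles most like WRKY70 over the 12 libraries were those of AT5G07770 (r = 0.992), the zinc finger gene ZAT7 (0.981), AT2G44290 (0.966), AT5G03350 (0.961) and BCS1 (0.961). The mean of AT5G07770 was 24.8 CPM in WT, 9.41 in pkl-1, 13.6 in clf-28 and 55.4 in pie1-5. The profiles most like WRKY53 were those of AT2G26190 (0.957), AT3G57630 (0.939), AT5G67460 (0.938), the chitin receptor gene LYK5 (0.934) and the transporter gene ABCC4 (0.930). With genotype means removed, the correlations were 0.26 to 0.79 for the genes listed with WRKY70 and 0.15 to 0.67 for those with WRKY53. LYK5 had means of 17.6 CPM in WT, 9.39 in pkl-1, 15.4 in clf-28 and 63.4 in pie1-5. AT5G03350, AT3G57630 and AT5G67460 overlap another annotated gene.

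The table lists 61 other genes with a WRKY symbol, of which 49 were tested, and WRKY52, which the RefSeq table lists as RRS1, is not among them. In pkl-1, 2 of these 49 were called lower (WRKY47, 2.01-fold, adjusted p = 0.00702, and WRKY40, 3.74-fold, 0.0428) and 0 higher, with a median log2 fold change of −0.20. In clf-28, 1 was called lower (WRKY48, 2.79-fold, 0.0259) and 0 higher, with a median of −0.14. In pie1-5, 3 were called higher (WRKY60, 2.71-fold, 0.00591, WRKY33, 2.96-fold, 0.00686, and WRKY11, 2.07-fold, 0.00686) and 1 lower (WRKY47, 1.67-fold, 0.0283), with a median of 0.12. These counts lie near the shares of all tested genes called, 4.03% in pkl-1, 2.15% in clf-28 and 7.36% in pie1-5. The call of WRKY40 was lost with a replicate block (0.0620) and without WT 3 (log2 −0.89 against −1.90, 0.297), pkl-1 1, pkl-1 2 or pkl-1 3, that of WRKY48 without WT 3, clf-28 1, clf-28 2 or clf-28 3 (up to 0.163), and that of WRKY47 in pie1-5 without WT 1, WT 3 or pie1-5 3 (up to 0.131). Of the other 4 group III genes, WRKY64 and WRKY66 had no read in any library and WRKY67 had at most 0.615 CPM, in WT 3. WRKY52, also known as the immune receptor RRS1, carries a WRKY domain on a nucleotide-binding leucine-rich repeat protein and stood at 3.62 to 6.57 CPM in all 12 libraries. The 3 group IIa genes (WRKY18, WRKY40 and WRKY60) are close partners in defence repression. Of these, WRKY40 alone was called in pkl-1, WRKY60 alone in pie1-5 and none in clf-28. In clf-28, 1 of the 3 had an unadjusted p under 0.05, a count given without the share of all genes. WRKY52 was called in no mutant, with log2 fold changes of −0.02 ± 0.26 in pkl-1, 0.17 ± 0.26 in clf-28 and 0.09 ± 0.26 in pie1-5.

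**Figure D3:**
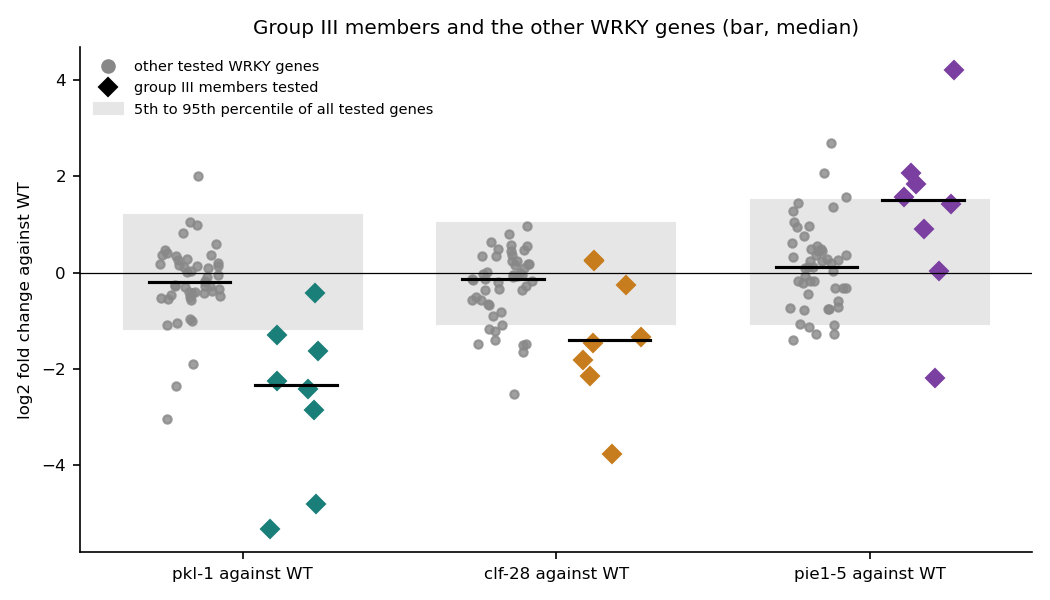
Log2 fold change against WT of the 8 tested group III members (diamonds) and of the 49 other tested WRKY genes (grey points), with medians as bars and the 5th to 95th percentile of all tested genes as grey boxes. In pkl-1 the median of the members was −2.34 and that of the other WRKY genes −0.20, and in pie1-5 they were 1.503 and 0.12.

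Genes around the group III factors in salicylic acid signalling were counted from lists. Of 15 genes of salicylic acid synthesis and perception, 4 were called lower and 0 higher in pkl-1, 1 lower and 0 higher in clf-28, and 5 higher and 0 lower in pie1-5, with median log2 fold changes of −0.48, −0.45 and 0.82. The shares of all tested genes called were 4.03, 2.15 and 7.36%. In pkl-1 the called genes of the list included PBS3, which makes the conjugate that yields salicylic acid (4.10-fold lower, adjusted p = 0.00436), PAD4, a lipase-like partner of EDS1 (4.37-fold, 0.00759), and CBP60g, a transcription factor for ICS1 (3.05-fold, 0.0222). In clf-28 PBS3 was the 1 gene called (2.78-fold lower, 0.0397). In pie1-5 the 3 with the smallest adjusted p were EDS5, a chloroplast exporter (2.44-fold higher, 0.0220), PBS3 (2.59-fold, 0.0223) and ICS1, which makes isochorismate (2.04-fold, 0.0247). The call of CBP60g was lost without WT 1, WT 3, pkl-1 1, pkl-1 2 or pkl-1 3 (up to 0.0952), and that of PBS3 in clf-28 with a replicate block (0.0720) and without WT 1, WT 2, clf-28 1, clf-28 2 or clf-28 3 (up to 0.176). In pie1-5 the call of EDS5 was lost without WT 1, WT 2 or pie1-5 3 (up to 0.0911), and those of PBS3 and ICS1 without WT 2, WT 3, pie1-5 2 or pie1-5 3 (up to 0.0725 and 0.104).

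Of 6 salicylic acid output genes, 4 were called lower in pkl-1, 3 lower in clf-28 and 3 higher in pie1-5, with 0 in the other direction in each and medians of −2.13, −1.41 and 1.18. Among all tested genes, 2.58% were called lower in pkl-1, 1.23% lower in clf-28 and 3.8% higher in pie1-5. In pkl-1 the pathogenesis-related genes PR5 (7.85-fold lower, adjusted p = 2.93e-04), PR2 (12.1-fold, 0.00143) and PR1 (8.47-fold, 0.00430) led. PR1 had a log2 value of −3.08, and of −4.39 without pkl-1 2. The call of NIMIN2 in pkl-1 (log2 −1.28, 0.0221) was lost without WT 3, pkl-1 2 or pkl-1 3 (up to 0.120). In clf-28 PR2 (13.1-fold lower, 0.00215), NIMIN2, which encodes an NPR1-binding protein (2.60-fold, 0.0217), and PR5 (2.70-fold, 0.0429) were called. In pie1-5 NIMIN1 rose from 2 reads to 485, a counting ratio of 214 (95% counting interval 58.8 to 1769, adjusted p = 5.28e-04). Its fitted log2 value was 7.48, 10.25 without WT 3, the library that holds both WT reads, and 6.85 without WT 2. Outside pie1-5 its highest count was 16 reads, in clf-28 2. Like WRKY38, NIMIN1 passed the filter on low counts only through pie1-5, the group in which it is high. Its part in the calls and the median of pie1-5 is therefore no support for a direction. NIMIN2 (3.32-fold higher, 0.00202) and PR5 (2.26-fold, 0.0452) were also called, PR5 with overlapping groups. The calls of NIMIN2 and PR5 in clf-28 were lost without WT 2, clf-28 1, clf-28 2 or clf-28 3, that of NIMIN2 also without WT 3 and that of PR5 also without WT 1 (up to 0.127 and 0.192), and the call of PR5 in pie1-5 without WT 1, WT 3, pie1-5 2 or pie1-5 3 (up to 0.178). With a replicate block PR5 missed the threshold in clf-28 (0.0521) and pie1-5 (0.0553).

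Of 14 early response genes of pattern-triggered immunity, 2 were called lower in pkl-1, 0 in clf-28 and 3 higher in pie1-5, with medians of −0.56, −0.11 and 0.81. Among all tested genes, 2.58% were called lower in pkl-1, 2.15% either way in clf-28 and 3.8% higher in pie1-5. In clf-28, where edgeR called 0, 3 of the 14 had an unadjusted p under 0.05. The called genes were PER4, a peroxidase (10.2-fold lower, adjusted p = 0.0144), and CML41, a calmodulin-like protein (4.00-fold, 0.0283), in pkl-1, and WRKY33, WRKY11 and the indole glucosinolate enzyme CYP81F2 (3.92-fold higher, 0.0168) in pie1-5. PER4 had log2 −3.35, and −4.46 without pkl-1 1, and lost its call without pkl-1 2 (0.0655), CML41 lost it without WT 2, pkl-1 1 or pkl-1 2 (up to 0.133), and CYP81F2 without WT 3 (0.0558). Of 8 genes whose products are reported partners of group III proteins, such as HDA19, MEKK1 and BES1, 7 were tested. None of the 7 was called by edgeR in any mutant, and 0, 0 and 4 had an unadjusted p under 0.05 in pkl-1, clf-28 and pie1-5. The share of all tested genes under that unadjusted threshold is not given here. These counts and the 3 of 14 above are therefore a description only. In fits of only the 6 libraries of pie1-5 and WT, the calls of PBS3, ICS1, PR5, CYP81F2, AP3 and WRKY47 in pie1-5 were also lost. EDS5, WRKY33, WRKY40 and the root gene PYK10 overlap another annotated gene, so their reads may include those of that gene.

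Of the senescence and flower markers, SEN1 and AP3 were called in some of the mutants. The 4 late senescence genes (SAG12, SAG13, SEN1 and NYE1) summed to 213 to 265 CPM in WT, 26.4 to 75.5 in pkl-1, 167 to 178 in clf-28 and 24.7 to 86.7 in pie1-5. Nearly all of the sum in WT was SEN1. In pkl-1 1 SEN1 stood at 13.9 CPM beside 10.2 CPM of SAG13, and in pie1-5 1 at 15.3 CPM beside 5.70 CPM of SAG13. SEN1 was called lower in pkl-1 (5.26-fold, adjusted p = 0.0128, lost without pkl-1 3 at 0.0519) and in pie1-5 (4.88-fold, 0.0124, log2 −2.29 and −2.93 without pie1-5 2). SAG13 and NYE1 were called in no mutant, with mean levels of 5.06 CPM in WT, 6.31 in pkl-1, 10.3 in clf-28 and 6.65 in pie1-5 for SAG13 and of 2.57, 2.52, 3.62 and 2.59 CPM for NYE1. The median log2 fold change of the 3 tested senescence genes was −0.03 in pkl-1, 0.48 in clf-28 and 0.0032 in pie1-5. SAG12, the defining gene of late senescence, had no read in 8 of the 12 libraries and at most 0.835 CPM. The 4 flower genes (AP1, AP3, PI and LAP6) summed to 1.36 to 2.19 CPM in WT, 0.764 to 1.98 in pkl-1, 2.46 to 3.03 in clf-28 and 2.24 to 10.1 in pie1-5. AP3 was called higher in pie1-5 (15.1-fold, 0.0316, log2 3.91), with log2 5.59 without WT 2, and lost the call without WT 1, WT 3, pie1-5 2 or pie1-5 3 (up to 0.125, log2 3.25 without pie1-5 2). Of the 4 root genes, PYK10 was higher in pkl-1 (1.94-fold, 0.00987, lost without WT 1 or WT 3, up to 0.0666) and in pie1-5 (2.37-fold, 0.00149), while COBL9 and RHD6 had reads in 2 and 1 of the 12 libraries. The part of these differences in the levels of the group III genes was not tested.

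The authors' deposited table of fold changes holds 7 of the 10 genes, without WRKY55, WRKY63 and WRKY41. At an adjusted p under 0.05, the authors' deposited table has 4 of the 7 lower in pkl-1 (WRKY70, WRKY54, WRKY46 and WRKY38), 2 lower in clf-28 and 4 higher in pie1-5. In the authors' deposited table, 1222, 722 and 1982 of 18489 genes pass that threshold in pkl-1, clf-28 and pie1-5.

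The deposited ChIP tables list, for each mutant replicate beside WT, regions with bounds at multiples of 200 bases, and these were placed on the genes by any overlap. Regions of H3K27me3, the mark of Polycomb repression, lay over WRKY55, WRKY62 and WRKY38 in both replicate tables of every mutant. They lay over 3 to 5 of the 10 genes in each table, and over 3 or 4 when the genes were shifted by 20000 bases, beside 26.8 to 35.2% of all 27432 protein-coding genes. The region of WRKY38 was chr5:7491001-7499200 (TAIR10), which also holds AT5G22560, that of WRKY55 was chr2:16996801-16999200 and that of WRKY62 was chr5:349801-355400. The WT column of all 6 H3K27me3 tables was 1 library of 13589567 reads, so WT has no replicate for this mark, and the mutant libraries held 3174679 to 19228746 reads.

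Over WRKY38, H3K27me3 stood at 184 RPM (reads scaled by the library total) in WT, at 117 and 84.6 RPM in pkl-1 replicates 1 and 2, at 77.5 and 33.7 RPM in clf-28 and at 156 and 156 RPM in pie1-5. Over WRKY62 it stood at 239 RPM in WT, at 108 and 122 RPM in pkl-1 and at 174 and 75.0 RPM in clf-28, and in pie1-5 at 205 RPM over a wider region (chr5:349001-355800, 250 RPM in WT) and 182 RPM. Over WRKY55 it stood at 70.4 RPM in WT, at 37.3 and 39.3 RPM in pkl-1, at 48.8 and 39.7 RPM in clf-28 and at 52.7 and 57.4 RPM in pie1-5. Every mutant value was below that of the WT library over the same region.

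In pkl-1 all 3 regions were called lower, and 51.0% of all 5337 regions were called lower and 0.225% higher (51.2% in all). With 1 WT library, the spread behind these tests comes from the 2 mutant libraries alone and WT is assumed to vary like them. The log2 ratios were −0.87 ± 0.24 for WRKY38 (adjusted p = 0.00138), −1.06 ± 0.22 for WRKY62 (1.60e-05) and −0.88 ± 0.37 for WRKY55 (0.0353), beside a median of −0.79 over all regions. These edgeR tests scale by library totals, and with TMM factors over the regions 0 of the 3 were called. The regions held 40.0 and 36.2% of the pkl-1 reads and 65.6 and 65.2% of the reads of the WT library, and the part of this difference in the result was not tested. In clf-28, 0 of the 3 regions were called by edgeR and 0 had an unadjusted p under 0.05. Of all 5441 regions there, 0.0% were called and 5 had an unadjusted p under 0.05. In clf-28 the log2 ratio was −1.73 ± 1.59 for WRKY38 (0.948), with 8.16% of regions lower, and the 2 replicates stood at −1.25 and −2.45. For WRKY62 and WRKY55 it was −0.94 ± 1.63 and −0.67 ± 1.55, with 47.4 and 64.7% of regions lower. The median over all regions was −0.90. In pie1-5, 0 of the 3 were called and 0 had an unadjusted p under 0.05. Of all 5180 regions there, 0.0386% were called and 109 had an unadjusted p under 0.05. The ratio over WRKY38 in pie1-5 was −0.25 ± 0.37 (0.993), with a median of −0.31 over all regions.

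In 1 of the 2 tables of a mutant, H3K27me3 regions also lay over other members. The table of pie1-5 replicate 2 has chr3:20908401-20909400 over WRKY70 with 248 reads against 44 in WT, a ratio of 5.41 in the authors' deposited table, and chr2:17000601-17002400 over WRKY54 with a ratio of 1.38 in the authors' deposited table. The table of clf-28 replicate 2 has chr4:12392801-12393800 over WRKY53 with 51 reads against 55 in the deeper WT library, a ratio of 3.97 in the authors' deposited table. The table of pkl-1 replicate 2 has chr2:17001001-17002200 over WRKY54 with 149 reads against 175. None of these has a partner in the other replicate, so they were not tested.

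H2A.Z regions lay over 8 to 10 of the 10 genes in the 6 tables, where 57.4 to 80.2% of all protein-coding genes had one, and over 4 to 7 when the genes were shifted by 20000 bases. In pie1-5 the ratio to WT over WRKY70 was −0.96 and −1.09 on the log2 scale in replicates 1 and 2, from 8.15 RPM against 15.9 in WT over chr3:20909201-20910400 and 12.7 against 26.96 over the wider chr3:20908401-20910400. Over WRKY54 it was −1.13 and −0.49, and over WRKY46, whose regions also hold AT2G46390, −1.25 and −0.47. Over WRKY53 it was −1.08 in replicate 1, whose region also holds AT4G23800, and −0.40 in replicate 2, whose longer region holds AT4G23780, AT4G23790 and AT4G23800. All 10 paired regions over 9 members had a negative fitted ratio, with a median of −0.63 beside −0.73 over all 14570 regions, so the group III genes lay near the level of all regions. In edgeR 0 of the 10 were called and 0 had an unadjusted p under 0.05. Of all 14570 regions, 0.0206% were called and 1873 had an unadjusted p under 0.05. Among the 10, WRKY70 had the lowest ratio (−1.02 ± 0.54, adjusted p = 0.276), with 12.9% of all regions below it.

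In pkl-1, 0 of 8 paired H2A.Z regions were called by edgeR and 1 had an unadjusted p under 0.05 (WRKY46, −0.33 ± 0.13). Of all 9861 regions, 0.0101% were called and 352 had an unadjusted p under 0.05. The median log2 ratio of the 8 was −0.08, beside 0.0007 over all regions. In clf-28, 0 of 11 regions over the 10 genes were called and 1 had an unadjusted p under 0.05 (WRKY63, −0.40 ± 0.17). Of all 14539 regions, 0.0% were called and 1694 had an unadjusted p under 0.05. The medians were −0.22 over the 11 and −0.27 over all regions. WRKY70 had 25.7 RPM of H2A.Z in pkl-1 2 against 26.96 in WT, and its region was not listed in the other pkl-1 table. The H2A.Z libraries held 7619268 to 19323803 reads, 2 a genotype, with a WT library of its own in each replicate table.

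**Figure D4:**
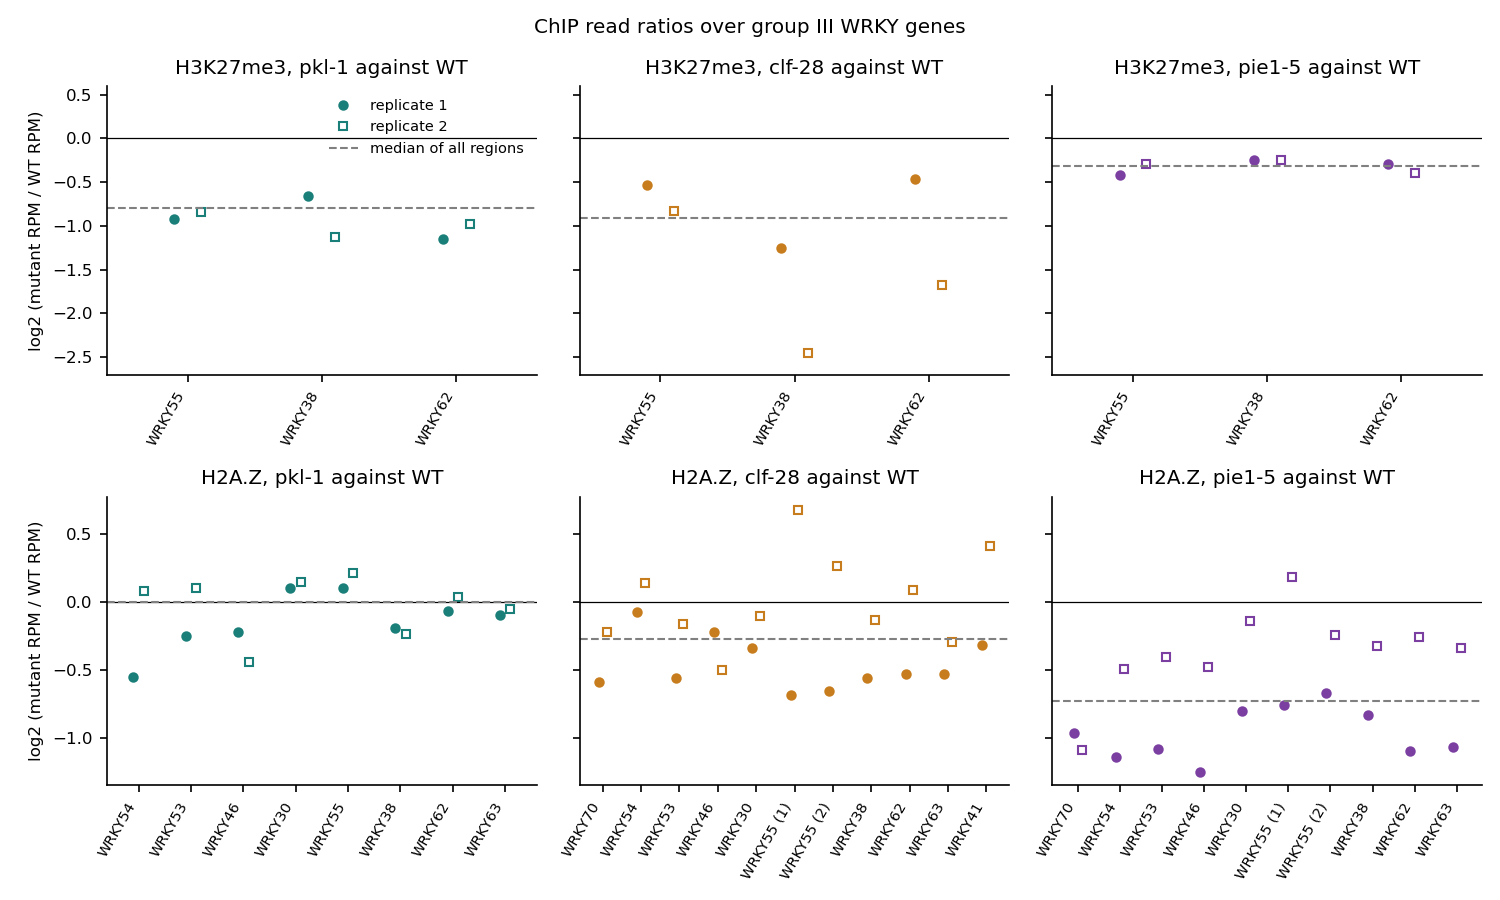
Log2 ratio of mutant RPM to WT RPM over the H3K27me3 regions (upper row) and H2A.Z regions (lower row) of group III genes found in both replicate tables of a mutant. Filled circles are replicate 1, open squares replicate 2 and the dashed line is the median of the fitted ratios of all regions, and WRKY55 has 2 separate H2A.Z regions in clf-28 and pie1-5. Over WRKY38 the H3K27me3 ratio was −1.25 and −2.45 in clf-28, and the H2A.Z ratio over WRKY70 was −0.96 and −1.09 in pie1-5.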

How the data were processed

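The submitters' processing notes name the tools Trimmomatic, Bowtie2, edgeR, SICER, bedtools and deepTools and the build TAIR10, with no versions. For 12 RNA-seq libraries the authors deposited raw read counts per gene. Another table that the authors deposited gives log2 fold changes, adjusted p-values and a mean signal per genotype, of which the means were not used. Per the file headers, each ChIP table holds, for every region, read counts of 1 mutant and 1 WT library, these counts normalized as RPM (scaled by the library total), their ratio, and p-values in each direction. Libraries of anti-H3 and input were not used here, so ChIP values are not relative to either.

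Gene counts were tested in R 4.3.3 with edgeR 4.0.16: TMM scaling, edgeR's default removal of low-count genes, 1 quasi-likelihood fit of all 12 libraries with genotype as the only term, and Benjamini-Hochberg adjustment over 20375 genes. CPM are counts scaled by library total and TMM factor and are not compared between genes. SE was derived from the F statistic. A group at 0 counts was set to a floor of 3 counts, and with 1 to 3 counts the ratio of summed counts is given with a 95% counting interval. ChIP regions were paired between the replicate tables (best match both ways, at least 50% of the shorter) and tested with edgeR on the counts, with library totals recovered from counts and RPM and region length as offset. The WT library common to the H3K27me3 tables entered once. Both scripts were tested on simulated data. DESeq2 1.42.0 and other settings served as alternatives.

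Symbols come from the RefSeq gene table of TAIR10.1, also used to place regions on genes, and none of its coordinates are printed. The members and gene lists were chosen with earlier results of these data known. Named are all 10 members, the other group III genes, up to 3 called genes of each list with the smallest adjusted p against WT, and the 5 genes most correlated with WRKY70 and with WRKY53. The other called WRKY genes, the targeted genes and LYK5 and AT5G07770 as examples with means were picked after their values were seen.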

Additional observations from a re-analysis of the deposited data

How the results depend on the processing

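Over all settings, values of tested group III genes that were called kept their call in 222 cases and lost it in 18, and uncalled ones gained a call in 17 and changed sign in 12. The causes of these changes were not tested, except that a left-out library leaves fewer samples. With no filter beyond 1 read, 1763, 1174, 2358 and 1332 genes were called in pkl-1, clf-28 and pie1-5 against WT and in pkl-1 against clf-28, and 2747 in clf-28 against pie1-5. DESeq2 called 1281 genes in pkl-1 and 767 in clf-28 against WT, and 983 in pkl-1 against clf-28. Fits of only the 6 libraries compared called 1470, 940, 513, 1241, 1411 and 1176 genes in pkl-1, clf-28 and pie1-5 against WT, pkl-1 against clf-28, pkl-1 against pie1-5 and clf-28 against pie1-5. Of the group III genes, pkl-1 against clf-28 gave 2 calls with no filter and 1 with DESeq2.

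Leaving out 1 library at a time gave, in the same order of the 6 comparisons, 2 to 4, 1 to 2, 3 to 5, 0 to 0, 5 to 6 and 5 to 5 group III genes and 412 to 596, 169 to 332, 749 to 2011, 208 to 341, 1288 to 2347 and 888 to 1957 genes in all. Group III values that changed sign among these were all uncalled. Their log2 ranges were −2.61 to 1.11 for WRKY62 in pkl-1, −2.29 to 0.60 for WRKY62 and −0.27 to 1.70 for WRKY38 in clf-28, and −0.40 to 0.21 for WRKY30 in pie1-5, each against WT. Between mutants they were −0.81 to 1.08 for WRKY62, −0.63 to 0.058 for WRKY54 and −4.22 to 0.92 for WRKY55 in pkl-1 against clf-28, and −0.69 to 0.14 for WRKY30 in clf-28 against pie1-5.

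The replicate numbers did not pair the libraries, since deviations of same-numbered libraries from their group means correlated at −0.036 to 0.083. With a replicate block, 3, 2, 4, 0, 5 and 5 group III genes and 812, 385, 1509, 565, 2200 and 1773 genes in all were called, and 0 H2A.Z regions of group III genes in each mutant. With the block WRKY30 in pie1-5 turned to −0.042 and WRKY62 in pkl-1 against clf-28 to −0.019, both uncalled. No block could be fitted for H3K27me3, which has 1 WT library.

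With TMM factors over the regions, 0 H3K27me3 regions of group III genes were called in pkl-1. The ratio turned to 0.43 over WRKY55 in clf-28 and to 0.12 over WRKY62 and 0.11 over WRKY38 in pie1-5. For H2A.Z it turned to 0.065, 0.056 and 0.058 over WRKY55, WRKY62 and WRKY30 in clf-28, and in pie1-5 to 0.10 over WRKY63, 0.52 and 0.30 over WRKY55, 0.057 over WRKY53, 0.13 over WRKY62, 0.23 over WRKY38 and 0.34 over WRKY30. None of these was called. Taking the WT counts from the replicate 2 table, an alternative chosen after seeing the data, left the H3K27me3 calls as they were. It is no check of these calls, since both tables hold the same WT library. Over the regions called in pkl-1 in the main test, the WT reads were the same in both. Low read numbers limit WRKY38, WRKY55, WRKY62, WRKY63 and WRKY41, with 0 to 84 reads a group outside pie1-5, and WRKY46, with 11 reads in pkl-1 and 35 in clf-28. Over WRKY62 the 2 clf-28 libraries differed in H3K27me3 (−0.46 and −1.67).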
